A study of Arabidopsis thaliana with 16 samples.

Results

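Of 22746 probe sets measured in Arabidopsis roots, 122 stood higher both after treatment with the synthetic auxin naphthaleneacetic acid (NAA) and after treatment with cycloheximide (CHX), an inhibitor of protein synthesis. They were chosen by the measured values. The level of a probe set was log2(intensity + 16), and N was its mean level in the NAA and NAA+DEX arrays minus that in the mock and DEX arrays, where DEX is dexamethasone. C was the same difference for the CHX and DEX+CHX arrays. Both N and C had to be at least 1.5, which 127 probe sets met. The rule also removed several gene families by symbol, which took out GH3.3, GH3.1, IAA29, IAA30 and LBD29 and left the 122 members. The annotation at hand gave 1 gene each to 57 of them, all different, and no gene to the other 65, which are called here by their probe set ID.

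All 8 groups were roots of seedlings 5 days old of 1 genotype, gPUCHI:GR puchi-1, which is the puchi-1 mutant carrying PUCHI fused to the glucocorticoid receptor (GR) and driven by PUCHI's own regulatory region, so the controls carry both the mutation and the transgene. PUCHI belongs to the AP2/ERF transcription factors and acts in early lateral root development, and DEX lets such a fusion enter the nucleus. Groups were treated for 4 h with NAA+DEX+CHX, NAA+CHX, DEX+CHX, CHX, NAA+DEX, NAA, DEX or mock (0.1% DMSO), at 2 µM DEX, 1 µM NAA and 10 µM CHX. Each group had 2 arrays, from independent sets of RNA per the series' design text. No line without the transgene was part of the series as analysed here, and the labels do not say how many seedlings or transgenic lines a sample holds. Below, the 4 arrays with and without DEX of each state are given together, as NAA+CHX, CHX, NAA and untreated arrays. Within each set of 4 values the arrays without DEX come before those with it.

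Auxin acts by removing Aux/IAA repressor proteins, which frees auxin response factors to change transcription within minutes to hours. Transcripts that build up when protein synthesis is blocked are a classical class of plant early response genes, described for auxin, wounding and pathogen responses alike. CHX is therefore used in such experiments to separate transcripts that change without new protein from those that need it.

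As a check of the tissue, 3 of 25 root markers and 1 of 16 markers of green tissue could be found by name. The root hair expansin EXPA7 had levels of 8.97 to 9.24 in NAA+CHX arrays, 9.43 to 9.90 in CHX arrays, 9.05 to 9.30 in NAA arrays and 9.61 to 10.10 in untreated arrays. EXPA18, of the same family, had levels of 8.78 to 9.30 in NAA+CHX arrays, 9.35 to 9.44 in CHX arrays, 9.77 to 9.95 in NAA arrays and 10.44 to 10.70 in untreated arrays. GSO1, a receptor kinase gene of the endodermal barrier, had levels of 9.41 to 9.50 in NAA+CHX arrays, 9.10 to 9.37 in CHX arrays, 8.11 to 8.36 in NAA arrays and 8.74 to 8.93 in untreated arrays. EXPA18 was highest untreated and GSO1 was highest with NAA+CHX, and the part of these markers in the results was not tested. RCA, which encodes Rubisco activase of green tissue, had levels of 8.34 to 8.77 in NAA+CHX arrays, 8.53 to 8.75 in CHX arrays, 8.64 to 8.85 in NAA arrays and 9.12 to 9.52 in untreated arrays. RCA was thus well above the lowest levels in every array, and its part in the results was not tested. In whole roots, a change in the number of cells that express a gene and a change in RNA per cell cannot be told apart. The ratio of 3' to 5' GAPDH control signal was 0.957 to 1.57 in NAA+CHX arrays, 0.763 to 1.24 in CHX arrays, 0.877 to 1.52 in NAA arrays and 1.13 to 1.53 in untreated arrays, and its part in the results was not tested.

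The members were low without treatment and spanned a wide range of changes. Their median level was 10.72 to 10.76 in the NAA+CHX arrays, 10.5 to 10.64 in the CHX arrays, 8.90 to 9.06 in the NAA arrays and 6.52 to 6.66 in the untreated arrays. Untreated, 21 members lay under a level of 5, where the intensity is below the 16 that was added, 53 lay at 5 to 7 and 48 at 7 or more. N ranged between 1.51 and 5.87 with a median of 2.28, and C between 1.51 and 9.55 with a median of 3.24, both as the rule requires. Over all probe sets 19% were called higher with NAA and 29.5% with CHX, which is background only, since these comparisons chose the members. C was the larger difference in 87 members and N in 35. Just inside the threshold, the lower of N and C was 1.509 for AT1G62422, 1.516 for AT1G14480 and 1.518 for EEL. Just outside it, the lower value was 1.481 for AT3G46110, 1.476 for AT1G77640 and 1.475 for AT2G23060.

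**Figure D1:**
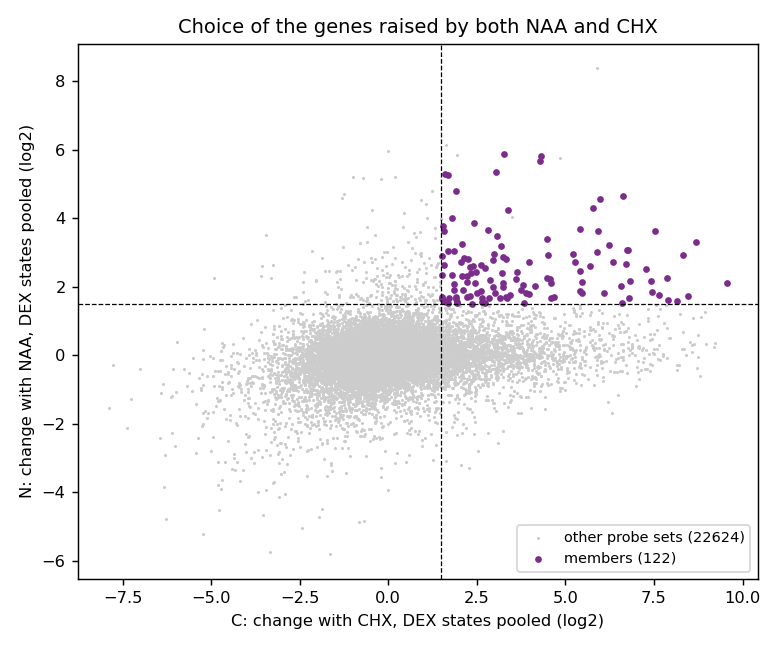
N, the change with NAA (vertical axis), against C, the change with CHX (horizontal axis), both as log2 differences with the DEX states pooled, with 1 point per probe set. The dashed lines mark the threshold of 1.5. The 122 members fill the upper right corner, and most of them, 87, have the larger value for CHX.

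Some members act in the cell wall or in cell expansion, and were picked by that role after their values were seen. EXO encodes EXORDIUM, a brassinosteroid-responsive protein that promotes cell expansion. Its levels were 13.74, 13.78, 13.80 and 13.85 in NAA+CHX arrays, 13.78, 13.69, 13.64 and 13.75 in CHX arrays, 11.17, 11.20, 11.07 and 11.19 in NAA arrays and 8.46, 8.68, 8.18 and 8.43 in untreated arrays. The NAA+CHX and CHX arrays overlapped, and both stood above the NAA arrays, which stood above the untreated ones. In all 122 members the NAA arrays and the CHX arrays lay above the untreated arrays, which the choice by N and C made likely. Adding CHX to NAA raised EXO by 2.63 ± 0.0699 (SE), or 6.21-fold (limma adjusted p = 1.87e-15). This comparison is close to C minus N, and both values chose the members. Its p-values, here and for the members below, are thus not independent of the choice. ARL, an ARGOS-LIKE gene of cell expansion downstream of brassinosteroid, had levels of 11.64, 11.86, 11.83 and 11.87 in NAA+CHX arrays, 11.74, 11.70, 11.90 and 11.63 in CHX arrays, 9.87, 10.09, 9.77 and 9.87 in NAA arrays and 7.86, 8.02, 8.10 and 7.99 in untreated arrays. It rose by 1.90 ± 0.078 when CHX was added to NAA (limma adjusted p = 6.33e-13), and showed the same order of states as EXO. AT2G47550, of the pectin methylesterase family that modifies wall pectin, rose by 3.37 ± 0.0863 in the same comparison (limma adjusted p = 1.15e-15).

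Of the members, 3 are described for their link to calcium, picked by their role after their values were seen. AT4G27280 encodes an EF-hand calcium-binding protein. It had levels of 13.94, 14.17, 14.36 and 14.18 in NAA+CHX arrays, 14.06, 14.10, 13.97 and 14.07 in CHX arrays, 11.76, 11.95, 11.64 and 11.76 in NAA arrays and 8.66, 9.11, 8.74 and 8.82 in untreated arrays. The calmodulin-like gene AT2G41090 had levels of 11.65, 11.64, 11.63 and 11.53 in NAA+CHX arrays, 11.11, 11.28, 11.18 and 11.11 in CHX arrays, 8.38, 8.28, 8.44 and 7.83 in NAA arrays and 6.05, 5.28, 5.85 and 5.91 in untreated arrays. The 4 NAA+CHX arrays of AT2G41090 all lay above the 4 CHX arrays, by 0.45 on average, but the difference did not pass the test (limma adjusted p = 0.0913). Adding CHX to NAA raised AT4G27280 by 2.38 ± 0.0914 (limma adjusted p = 2.55e-13) and AT2G41090 by 3.38 ± 0.14 (limma adjusted p = 7.35e-13). AT5G66650, of the mitochondrial calcium uniporter family, rose by 1.46 ± 0.107 (limma adjusted p = 1.6e-09).

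Among peptide and transport genes were members with a large N. AT4G37290 encodes the precursor of a PIP peptide, a class of secreted signals that amplify immune responses. Its levels were 11.85, 11.76, 11.95 and 11.72 in NAA+CHX arrays, 11.87, 11.74, 11.87 and 11.85 in CHX arrays, 10.29, 10.39, 10.28 and 10.43 in NAA arrays and 6.28, 6.25, 5.85 and 5.80 in untreated arrays. Its neighbour AT4G37295, with no gene between them in the gene order of the TAIR10.1 table, had levels of 10.21, 10.26, 10.24 and 10.05 in NAA+CHX arrays, 9.85, 9.87, 9.95 and 9.78 in CHX arrays, 12.26, 12.24, 12.09 and 12.18 in NAA arrays and 6.66, 7.16, 7.02 and 6.52 in untreated arrays. The adjacent genes thus differed in order: CHX gave the higher level of AT4G37290, with C at 5.78 and N at 4.30, and NAA that of AT4G37295, with C at 3.03 and N at 5.35. AT5G52050, a MATE carrier that exports abscisic acid, had levels of 11.56, 11.80, 12.12 and 11.82 in NAA+CHX arrays, 11.76, 11.66, 12.22 and 12.13 in CHX arrays, 7.90, 7.87, 8.17 and 8.23 in NAA arrays and 4.18, 4.19, 4.25 and 5.07 in untreated arrays. Its untreated intensity was near or below the added 16, so its differences are understated. Adding CHX to NAA raised it 13.8-fold (3.78 ± 0.13, limma adjusted p = 5.76e-14). AT1G59740, of the NRT1/PTR transporter family, was one of the members with the larger N, at 3.47 against a C of 3.06.

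Few transcription factors were found among the named members, after the rule had removed the regulators LBD29, IAA29 and IAA30 by symbol. The 65 members without a gene could not be searched. HAT2, an auxin-inducible HD-Zip class II factor, had levels of 10.96, 10.77, 10.91 and 11.03 in NAA+CHX arrays, 10.46, 10.70, 10.65 and 10.76 in CHX arrays, 10.66, 10.83, 10.51 and 10.44 in NAA arrays and 9.07, 8.77, 8.94 and 8.93 in untreated arrays. The CHX and NAA arrays of HAT2 overlapped, with N at 1.68 and C at 1.71. With both agents HAT2 stood 0.28 ± 0.0806 above CHX, which did not pass the test (limma adjusted p = 0.0655), and it rose by 0.31 ± 0.0806 relative to NAA (limma adjusted p = 0.00282). EEL, a bZIP factor of abscisic acid responses in seeds, had N at 1.52 and C at 1.70. AT5G18550, a CCCH zinc finger gene that is the direct neighbour of PUCHI in the gene order, had N at 1.54 and C at 1.64. Its DEX difference averaged over the 4 states was -0.08 (limma adjusted p = 0.928).

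Several members encode enzymes. AT5G43450, the named member with the largest C, belongs to the 2-oxoglutarate and Fe(II)-dependent dioxygenase family and had levels of 14.87, 14.40, 14.42 and 14.37 in NAA+CHX arrays, 14.43, 14.71, 14.40 and 14.48 in CHX arrays, 7.68, 7.83, 7.82 and 7.83 in NAA arrays and 5.88, 5.97, 6.14 and 6.25 in untreated arrays. The NAA arrays stood clear of the untreated ones, as in every member, but far below both sets with CHX. Adding CHX to NAA raised AT5G43450 106-fold (6.72 ± 0.0892, limma adjusted p = 4.92e-19). Its p-value, like the others for CHX added to NAA, is not independent of the choice. AT3G62960, of the glutaredoxin family, rose by 3.70 ± 0.12 in that comparison (limma adjusted p = 2.71e-14), and AT1G44130, of the aspartyl protease family, by 4.37 ± 0.215 (limma adjusted p = 7.35e-12). Of members for which no enzyme role is given here, AT2G41730 rose by 5.60 ± 0.0802 (limma adjusted p = 1.05e-18) and AT5G22530 by 4.80 ± 0.103 (limma adjusted p = 1.19e-16). Among unnamed members, 260406_at had the largest C of all, 9.55, beside an N of 2.1.

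**Figure D2:**
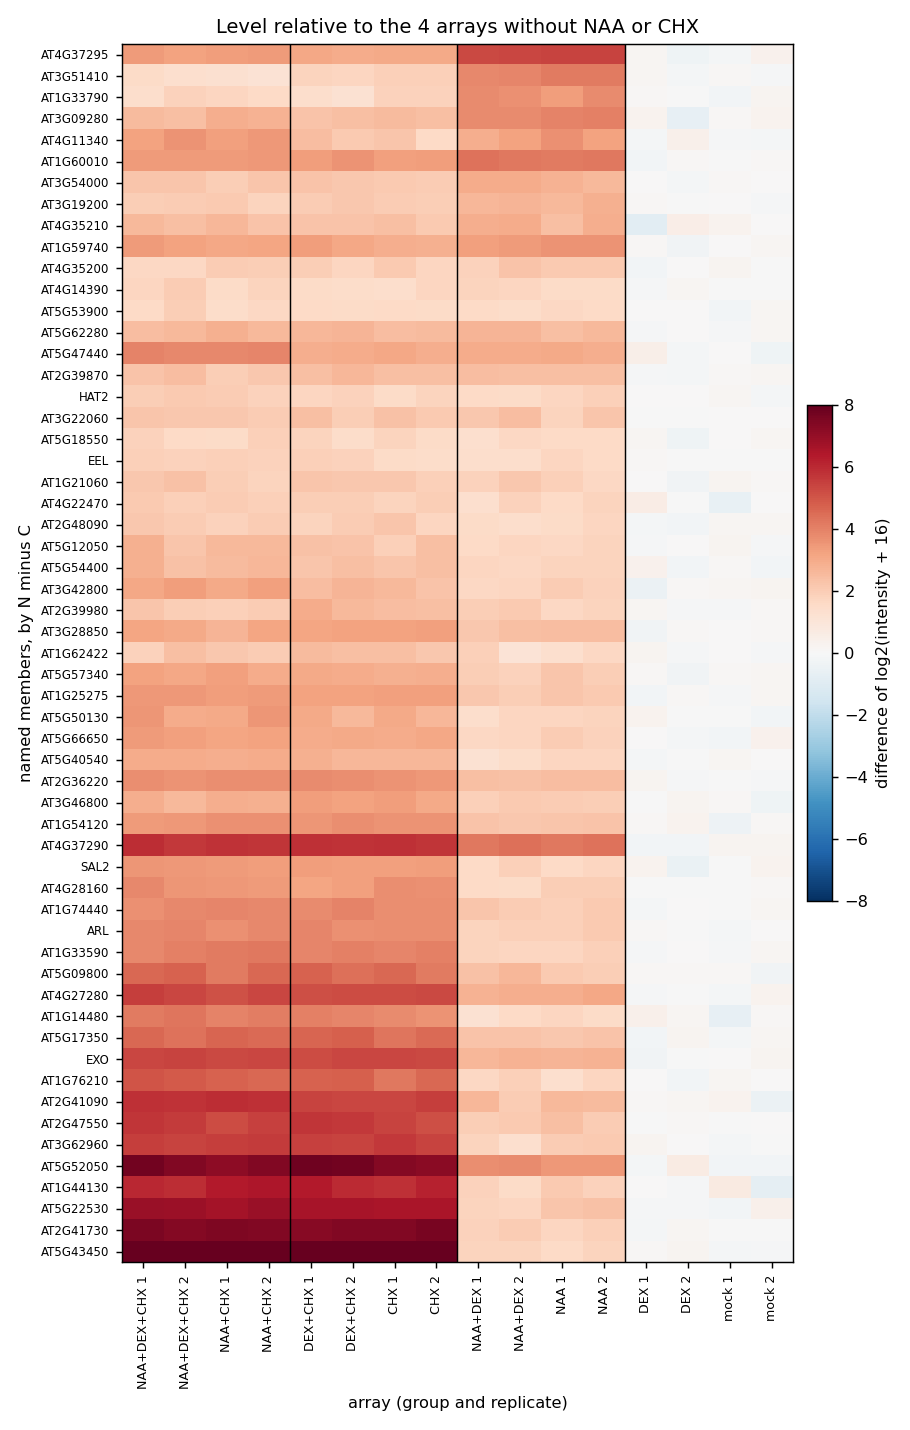
Level of the 57 named members (rows, ordered by N minus C) on each of the 16 arrays (columns) relative to the mean of the 4 untreated arrays, as a difference of log2(intensity + 16). Red is higher and blue lower, and the colours end at a difference of 8. Toward the bottom the CHX arrays are redder than the NAA arrays, and the NAA+CHX arrays resemble the CHX arrays in most rows.

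NAA+CHX minus untreated had a median of 3.43 over the members, between 0.85 and 9.43, against -0.02 over all probe sets. In 107 of 122 members (87.7%) this difference was within 0.5 of C, beside 94.1% of all probe sets, so closeness to C was general on these arrays. It was within 0.5 of N in 30 members (24.6%), beside 43.0% of all probe sets. Set against the higher of the single treatments, the median was 0.04 with quartiles of -0.24 and 0.15. The difference with both agents was below the sum of N and C in 122 of 122 members, by between 1.15 and 5.07 on the log2 scale. The untreated arrays enter all 3 differences, so these figures are a description. The shortfall from the sum equals N minus the change with NAA under CHX. N was at least 1.5 by the rule, and that change had a median of 0.00 over all probe sets. The 122 of 122 was thus close to fixed by the choice. In 121 members all 4 NAA+CHX arrays lay above all 4 untreated arrays, as in 26.6% of all probe sets. The exception was 252129_at, with levels of 6.43, 5.39, 4.54 and 4.41 in NAA+CHX arrays, 6.80, 5.83, 6.41 and 5.73 in CHX arrays, 6.02, 6.17, 6.19 and 6.59 in NAA arrays and 4.42, 4.42, 4.37 and 4.17 in untreated arrays. Its NAA+CHX arrays were spread more widely than those of any other state.

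Some members stood higher with NAA than without it even while CHX was present. The NAA+CHX arrays were not used to choose the members. The CHX arrays were, for their high values, which tilts this comparison toward falls, so rises are given with their test and falls without one. NAA raised 17 members under CHX (13.9%; limma, adjusted over all probe sets), where 1.38% of all probe sets were called higher. Of the 17, 12 were among the 35 members with the larger N (34.3%) and 5 among the 87 with the larger C (5.75%). The CHX arrays enter both C and this comparison, so the split is a description. The median difference was 0.09 over the members and 0.00 over all probe sets. In each of the 17 all 4 NAA+CHX arrays lay above all 4 CHX arrays, as in 27 members in all and 4.22% of all probe sets.

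Of the 17 members, 4 were named. AT4G11340, which encodes a TIR-domain protein, a domain known from plant immune receptors, had levels of 7.74, 7.90, 7.66 and 8.01 in NAA+CHX arrays, 6.68, 6.03, 6.92 and 6.51 in CHX arrays, 8.11, 7.66, 7.35 and 7.64 in NAA arrays and 4.37, 4.27, 4.32 and 4.83 in untreated arrays. The NAA+CHX and NAA arrays overlapped, and both lay above the CHX arrays. NAA raised it 2.45-fold under CHX (1.29 ± 0.197, limma adjusted p = 0.00102). AT5G47440 had levels of 10.19, 10.26, 10.28 and 10.17 in NAA+CHX arrays, 9.42, 9.25, 9.26 and 9.31 in CHX arrays, 9.37, 9.25, 9.28 and 9.29 in NAA arrays and 6.35, 6.0, 6.79 and 6.2 in untreated arrays. Each agent alone gave nearly the same range, and both together stood above either. AT5G47440 rose by 0.92 ± 0.113 relative to CHX (limma adjusted p = 0.00015) and by 0.93 ± 0.113 relative to NAA (limma adjusted p = 1.18e-06).

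AT3G42800 belongs to the BIG GRAIN 1-like family, whose founding gene in rice affects auxin transport and grain size. Its levels were 9.82, 10.04, 9.86 and 10.11 in NAA+CHX arrays, 9.39, 9.04, 9.27 and 9.51 in CHX arrays, 8.83, 8.64, 8.42 and 8.50 in NAA arrays and 6.97, 7.03, 6.30 and 6.85 in untreated arrays. The 4 states did not overlap. NAA raised it by 0.66 ± 0.121 under CHX (limma adjusted p = 0.00452), and CHX raised it by 1.36 ± 0.121 under NAA (limma adjusted p = 2.32e-08). Another gene of the same family, AT5G12050, stood 0.33 ± 0.121 higher with NAA under CHX, which did not pass the test (limma adjusted p = 0.16). The protein kinase gene AT5G40540 rose by 0.25 ± 0.0677 under CHX (limma adjusted p = 0.0494), a call that was lost in 17 of 22 alternative analyses, where its adjusted p reached 0.203.

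The unnamed members held the largest rises with NAA under CHX. The probe set 261766_at had levels of 9.28, 9.09, 8.89 and 8.77 in NAA+CHX arrays, 6.49, 6.65, 7.07 and 6.74 in CHX arrays, 10.37, 10.37, 10.19 and 10.34 in NAA arrays and 5.80, 4.80, 4.90 and 4.72 in untreated arrays. NAA+CHX lay between the NAA and the CHX arrays, with no overlap. Its rise was 4.83-fold (2.27 ± 0.167, limma adjusted p = 1.14e-06). The same order of states held for 247869_at, which rose by 1.82 ± 0.135 (limma adjusted p = 1.14e-06), for 260376_at, which rose by 1.46 ± 0.127 (limma adjusted p = 4.84e-06), and for 245140_at, which rose by 1.2 ± 0.102 (limma adjusted p = 4.84e-06). In 262099_s_at, NAA+CHX gave 13.13, 13.15, 13.06 and 13.09, CHX gave 11.82, 11.87, 12.01 and 11.80, NAA gave 13.14, 13.25, 13.30 and 13.30 and untreated arrays gave 7.28, 7.73, 7.69 and 7.68. There the NAA+CHX and NAA arrays overlapped at their edge, and the rise under CHX was 1.24 ± 0.0809 (limma adjusted p = 6.26e-07).

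**Figure D3:**
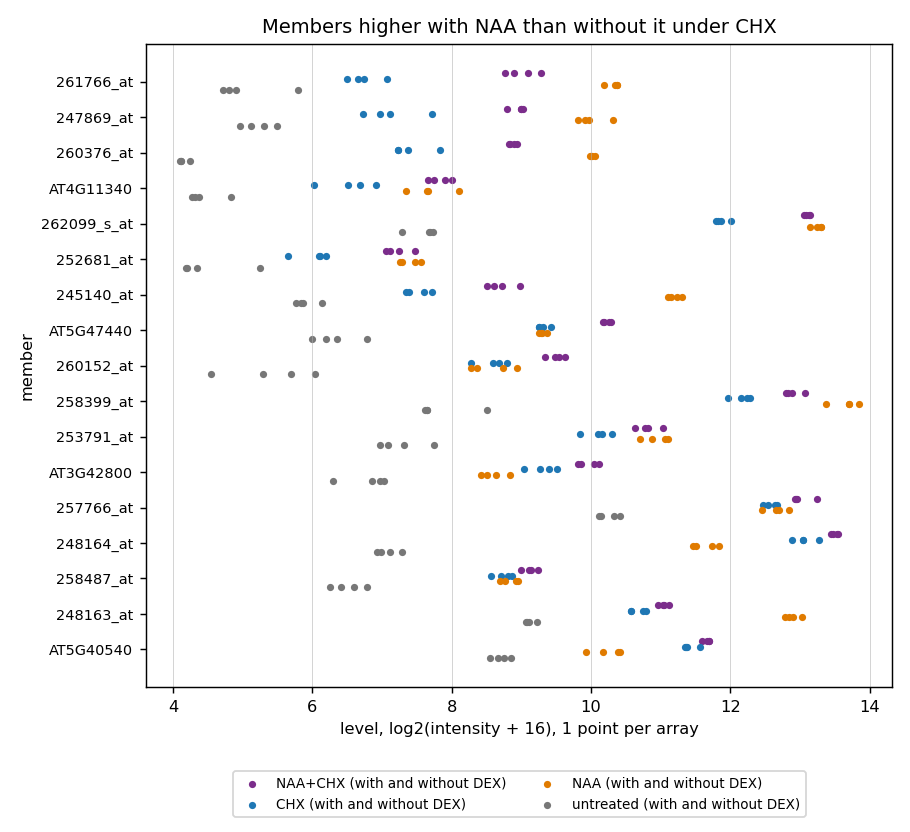
Levels, as log2(intensity + 16), of the 17 members that NAA raised under CHX, with 1 point per array and 4 arrays for each state. In each row the NAA+CHX points lie to the right of the CHX points, and in the top rows, such as 261766_at, they lie to the left of the NAA points.

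In the other direction, NAA+CHX stood lower than CHX in 33 members. The threshold used for rises was passed by 5 of them (4.1%), beside 3.09% of all probe sets, a count that the choice of members tilts upward and that is a description only. Their differences were -0.58 for AT2G39980, of the HXXXD acyltransferase family, -0.48 for AT3G51410, -0.99 for 252129_at, -0.35 for 267357_at and -0.35 for 259980_at. That count was 3 without CHX replicate 1 and 2 without NAA+CHX replicate 2. In 8 members all 4 NAA+CHX arrays lay below all 4 CHX arrays, as in 5.43% of all probe sets.

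Adding CHX to NAA raised 78 members (63.9%), where 29.1% of all probe sets were called higher. The NAA arrays entered the choice in the same way as the CHX arrays, so falls are again given without a test. Since NAA+CHX minus untreated was within 0.5 of C in 94.1% of all probe sets, this comparison is close to C minus N. The choice used both values. Called higher were 76 of the 87 members with the larger C and 2 of the 35 with the larger N. The 63.9%, and the p-values of single members for CHX added to NAA, are thus not independent of the choice. The median difference was 1.21 over the members and -0.01 over all probe sets. NAA+CHX stood lower than NAA in 31 members, of which 23 (18.9%) passed the threshold used for rises, beside 35.1% of all probe sets, again as a description only. In 77 members all 4 NAA+CHX arrays lay above all 4 NAA arrays and in 20 below them, as in 26.7% and 32.8% of all probe sets.

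The members that were lower with NAA+CHX than with NAA alone included several named genes. AT3G51410 had levels of 7.57, 7.41, 7.82 and 7.60 in NAA+CHX arrays, 8.16, 8.17, 8.02 and 7.96 in CHX arrays, 10.43, 10.43, 10.13 and 10.16 in NAA arrays and 6.34, 6.16, 6.44 and 6.14 in untreated arrays. Its NAA+CHX arrays lay below both sets with 1 agent and above the untreated arrays. AT1G33790, of the jacalin lectin family, had levels of 8.54, 8.46, 8.26 and 8.66 in NAA+CHX arrays, 8.69, 8.71, 8.23 and 8.07 in CHX arrays, 10.19, 10.60, 10.60 and 10.47 in NAA arrays and 6.60, 7.06, 6.92 and 6.80 in untreated arrays. Its NAA+CHX and CHX arrays overlapped below the NAA arrays. NAA+CHX minus NAA was -2.69 for AT3G51410, -2.00 for AT4G37295, -1.99 for AT1G33790, -1.23 for AT3G09280, -0.82 for AT1G60010, -0.75 for AT3G19200 and -0.69 for AT3G54000.

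**Figure D4:**
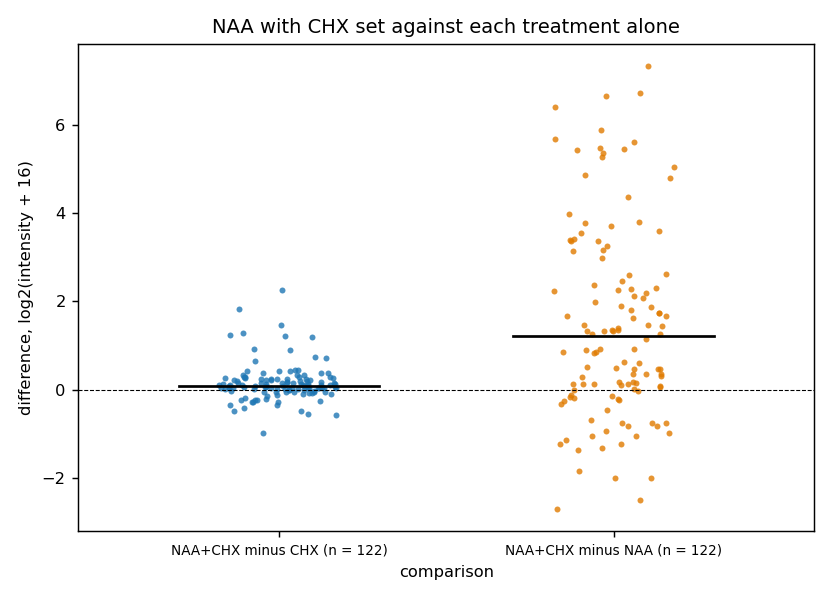
NAA+CHX minus CHX and NAA+CHX minus NAA, as differences of log2(intensity + 16), for the 122 members, with 1 point per member and a bar at the median. The median against CHX is 0.09 and that against NAA is 1.21, with a wider spread.

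Probe sets that passed only 1 of the thresholds give the setting of these shares. With N of at least 1.5 and C under 1.5 there were 210 probe sets, of which 28 (13.3%) were called higher and 4 (1.9%) lower with NAA under CHX. With C of at least 1.5 and N under 1.5 there were 2115, of which 72 (3.4%) were called higher and 82 (3.88%) lower. The members' 13.9% lay near the first of these shares. CHX under NAA was called higher in 1 of the 210 and in 2107 (99.6%) of the 2115. The sets were cut on values that enter these comparisons, so no test was made between them.

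DEX, which brings the PUCHI fusion into the nucleus, changed 1 member in 1 state and no other past the test. The choice did not use this comparison, since it averaged over DEX. With limma, 0 of 122 members were called for the DEX average over the 4 states, where 0.0791% of all probe sets were called. By state, 0 members were called with NAA and CHX (0.0308% of all probe sets), 0 with CHX (0.0132%), 0 with NAA (0.0352%) and 1 with DEX alone (0.022%). At an unadjusted p under 0.05 the counts were 21 members for the average (17.2%, beside 6.95% of all probe sets), 11 with NAA and CHX (9.02%, beside 7.57%), 18 with CHX (14.8%, beside 6.63%), 18 with NAA (14.8%, beside 7.18%) and 29 with DEX alone (23.8%, beside 4.7%). The test uses 1 spread per probe set for all 8 groups, so a wider spread in the mock and DEX arrays would raise the count with DEX alone. Across the members the replicates agreed least in those arrays, as given below, and the part of this in the counts was not tested. The average difference lay between -0.38 and 0.39 with a median of 0.01. Without DEX replicate 1, 2 members were called for the average and 2 for DEX alone. Without mock replicate 2, 3 were called for DEX alone and 1 with NAA.

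The member called for DEX alone was 245613_at, with levels of 4.57 and 4.34 in DEX arrays and 5.85 and 5.65 in mock arrays. It fell by 1.29 on the log2 scale (SE 0.137, limma adjusted p = 0.00144). These levels lie around the added 16, and the call was lost without the variance trend and with a pseudocount of 64, with an adjusted p of up to 0.699. In the other states its DEX differences were 0.13 with NAA and CHX, 0.21 with CHX and -0.14 with NAA. Across the members, Pearson's r between the replicates was 0.963 in DEX arrays and 0.963 in mock arrays, against 0.992 to 0.996 in the groups with NAA or CHX, and over all probe sets it was 0.983 to 0.989 in every group.

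**Figure D5:**
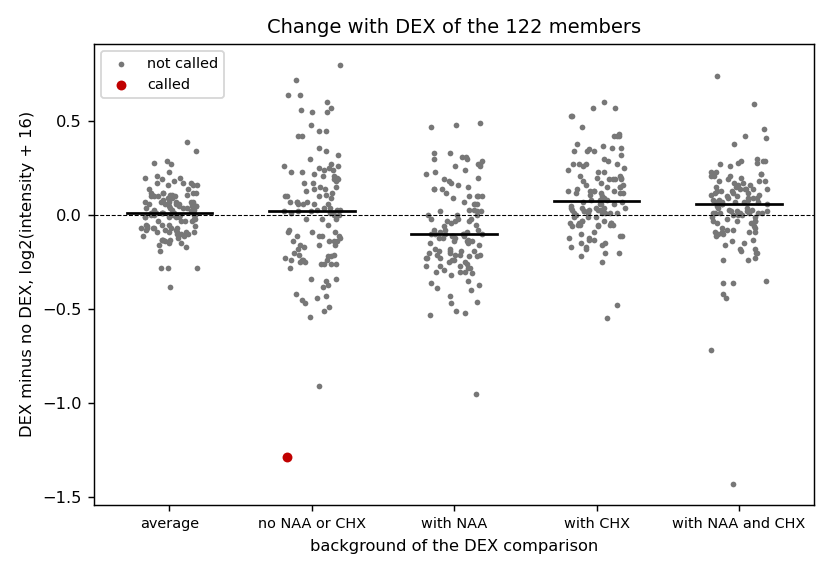
DEX minus no DEX, as a difference of log2(intensity + 16), for the 122 members on average and in each state, with 1 point per member, a bar at the median and the called member in red. The medians lie between -0.10 and 0.07, and the 1 called member, 245613_at, lies at -1.29 with DEX alone.

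The wider gene families to which auxin-responsive and stress-responsive genes belong were described through 22 lists by symbol, of which 6 had no gene found by name (SAUR, ethylene synthesis, JAZ, ABCG and ABCC, gibberellin oxidases and cytokinin turnover). Apart from the members HAT2 and AT5G52050, and WRKY53, STZ and CML38, which the rule names, these genes did not enter through N and C, so limma's calls are given. Of 7 WRKY factors, which act in immune and stress responses, 4 rose and 0 fell with NAA (median 0.44), 6 rose and 0 fell with CHX (median 0.75), and 2 rose with NAA under CHX. Those were WRKY6, by 0.41 ± 0.0726 (limma adjusted p = 0.00341), and WRKY22, by 0.38 ± 0.0988 (limma adjusted p = 0.0364). Of 14 ubiquitin ligases found by symbol, 6 rose and 2 fell with NAA (median 0.23), and 9 rose and 2 fell with CHX (median 2.07). Genes of a family that have only a locus name can be missed by these lists. PUB23, a U-box ligase that dampens immune signalling, rose by 1.25 ± 0.0611 with NAA (limma adjusted p = 6.81e-11), by 4.27 ± 0.0611 with CHX (limma adjusted p = 8.01e-19) and by 0.31 ± 0.0611 with NAA under CHX (limma adjusted p = 0.00775). The background was 19% of all probe sets higher and 18.8% lower with NAA, and 29.5% higher and 34.4% lower with CHX. With NAA under CHX it was 1.38% higher and 3.09% lower.

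The further lists are read against 37.8% of all probe sets called with NAA in either direction and 63.9% with CHX. Of 8 calcium sensors, 1 rose and 3 fell with NAA (median -0.32), and 6 rose and 1 fell with CHX (median 2.19). That list was drawn by symbol, which did not match AT4G27280 and AT2G41090, both members and so raised by choice. AT4G27280 had N at 2.94 and C at 5.22, and AT2G41090 had N at 2.46 and C at 5.4. CML37, a calmodulin-like protein of wound and stress responses, rose by 7.19 ± 0.144 with CHX (limma adjusted p = 4.6e-17), while its NAA difference was -0.20 (limma adjusted p = 0.322). Of 23 cytochrome P450 genes, 1 rose and 6 fell with NAA, and 6 rose and 4 fell with CHX. Of 5 ERF and DREB factors, 0 rose and 1 fell with NAA, and 3 rose and 1 fell with CHX. With NAA under CHX, tny of that list fell by 0.62 ± 0.119 (limma adjusted p = 0.00609). Of 4 MYB-related factors, 0 changed with NAA and 3 rose with CHX. Of these, MYBC1 fell by 0.37 ± 0.0715 with NAA under CHX (limma adjusted p = 0.00629). The receptor kinase list held 4 genes (EFR, THE1, FER and CRK). It was drawn by symbol, which does not check that each is a receptor kinase. With NAA 1 of them fell, and with CHX 3 rose, CRK not among them. Of 6 pectin methylesterases and inhibitors, 3 fell with NAA, and 2 rose and 3 fell with CHX. That list was drawn by symbol and so leaves out the member AT2G47550, of the same family, which has only a locus name and had N at 2.13 and C at 5.47. Of 3 homeobox genes, HAT2 among them, 2 rose with NAA, and 1 rose and 1 fell with CHX.

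The remaining lists held 1 or 2 genes each. With CHX, 2 of 2 NAC genes rose, and 1 of 2 MAP kinases rose and 1 fell, while 0 of either pair was called with NAA. The zinc finger gene STZ, which the rule had set aside by name, stood 1.36 higher with NAA and 7.33 higher with CHX. WAG2, a kinase that acts on auxin transport, fell by 0.57 with NAA (limma adjusted p = 5.14e-05) and rose by 1.31 with CHX (limma adjusted p = 4.07e-10). Under CHX, WAG2 fell by 0.40 ± 0.0862 with NAA (limma adjusted p = 0.0121). BHLH101, a regulator of iron uptake, fell by 1.02 with CHX (limma adjusted p = 0.000787), and the protein phosphatase gene PIA1 fell by 0.31 with NAA (limma adjusted p = 0.0142) and by 0.22 with CHX (limma adjusted p = 0.0451). The MATE list held only the member AT5G52050.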

How the data were processed

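Biotin-labelled cRNA from 16 root RNA samples was hybridised to 1 Affymetrix 3' array each. The authors deposited 1 linear intensity for each probe set, produced in Affymetrix Expression Console 1.3 per the submitters' processing notes, with the summarising algorithm not given there. Trimmed of 2% at either end, the mean intensity came to 500 for every array, so a shift of all transcripts cannot be seen. Of 22810 probe sets, 64 controls were left out. Names came from the platform's probe table, updated for 13436 probe sets through the gene table.

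With 1 mean for each of 8 groups, log2(intensity + 16) of the 16 arrays was fitted with limma 3.58.1 in R 4.3.3 (lmFit, and eBayes with a variance trend, 8 residual degrees of freedom), and p-values were adjusted by Benjamini-Hochberg over 22746 probe sets, with calls under 0.05. Tests are 2-sided. The scale understates changes of low genes. In 5 simulated data sets of 22746 probe sets for NAA under CHX, the fit recovered 79.2% of log2 changes of 1 and 99.2% of changes of 2, with 4.86% of calls false. There the noise was normal, with the same spread in all groups, and few probe sets changed, all upward. The false share is thus that of the simulation and not of these data.

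The members and lists were chosen with earlier results of these data known. Named are members with the highest lower value of N and C, the largest differences where 4 arrays lie beyond the other 4, the extremes of N minus C, calls for DEX, members of a list and those nearest the threshold. CML37, PUB23 and the other listed genes named, and the examples by role outside that rule, were picked after their values were seen. A planned search of promoters for motifs was not made. Alternatives were quantile normalization, a filter to the brightest 60% by mean, a replicate block, no variance trend, pseudocounts of 1 and 64, thresholds of 1 and 2, and leaving out each array. Replicate numbers did not pair the arrays.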

Additional observations from a re-analysis of the deposited data

How the results depend on the processing

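Counts below are of members. Without 1 array the count called for DEX ranged between 0 and 2 for the average, 1 and 3 for DEX alone and 0 and 1 with NAA, and a pseudocount of 1 gave 1 for the average. For DEX alone it was 3 with a pseudocount of 1, 0 with a pseudocount of 64 and 0 without the variance trend. The count with NAA and CHX and the count with CHX were 0 in all 22 alternatives. NAA under CHX raised between 13 and 23 members. The count called lower was between 2 and 5 without 1 array and between 2 and 6 in the other alternatives, with 2 without the variance trend. CHX under NAA raised between 75 and 80, with between 20 and 25 called lower. Of 17 rises with NAA under CHX, 12 were kept in every alternative that tested them. AT5G40540 was lost in 17, 258487_at in 9, 260152_at in 5, and 252681_at and 257766_at in 1 each. The number of members, 122, was 294 with a pseudocount of 1, 68 with a pseudocount of 64, 287 with thresholds of 1 and 65 with thresholds of 2. It was 113 after quantile normalization, with 112 shared, 111 with the 60% filter, and between 116 and 131 without 1 array. The median of NAA+CHX minus untreated, 3.43, was 3.68 with the filter, which leaves out low probe sets, 3.85 with a pseudocount of 1, 2.90 with one of 64, and between 3.42 and 3.5 without 1 array. Quantile normalization moved the median of all probe sets to -0.11 for CHX under NAA. Apart from those shown by construction, the cause was not tested.

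With the replicate number as a block, 18 members rose and 5 were lower with NAA under CHX, and 78 rose and 23 were lower with CHX under NAA; 0 were called for the DEX average and 1 for DEX alone. The deviations of same-numbered arrays correlated by -0.05 to 0.06 over 28 pairs of groups, so the numbers were not taken as a pairing.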

Other observations

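The 57 named members lay on all 5 chromosomes, with 12, 9, 9, 10 and 17 genes on chromosomes 1 to 5. Besides AT4G37290 and AT4G37295, AT4G35200 and AT4G35210, which belong to 1 family of plant proteins without a known role, were direct neighbours in the gene order. AT4G35200 had N at 2.07 and C at 1.86, and AT4G35210 had N at 2.81 and C at 2.25. EEL and AT2G41090 had 2 genes between them. The median length of the members' genes in the TAIR10.1 table was 1750 bases (quartiles 1210 and 2490), beside 2120 bases (quartiles 1410 and 3070) for all genes measured by name. It was 1790 bases (quartiles 1160 and 2630) where only N reached 1.5, near the members' value. Where only C did, it was 2050 bases (quartiles 1360 and 2850). The 65 unnamed members had a median N of 2.61 and C of 3.90, and the 57 named ones a median N of 2.03 and C of 3.0. The DEX difference of 252129_at with NAA and CHX was -1.43, the lowest of the members in that state, and was not called by limma.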
